A study of Rattus norvegicus with 12 samples.

Results

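The genes described here are 35 genes of mitochondrial and peroxisomal fatty acid oxidation, measured in rat liver before and during feeding with a high-fat emulsion. They were taken by gene symbol, as enzymes, carriers and peroxisomal proteins that activate, import and degrade fatty acids. The list was chosen with earlier results of these data known. Its counts beside the shares of all genes are therefore descriptive and do not test the list. All 35 had at least 1 probe set on the array, out of 13878 gene symbols. Each gene was represented by its brightest probe set, and 34 of the 35 were bright enough to be tested, out of 11318 genes tested. The exception was Acot1, a cytosolic acyl-CoA thioesterase, whose signals of 1.8 to 51.2 lay under the dim threshold of the array on 11 of 12 arrays. The RNA was taken from right-lobe liver tissue of Sprague-Dawley rats, given as 12-week-old for every group, and each sample was measured on its own Rat Genome 230 2.0 array. Normal liver at 0h, before any emulsion, made up 3 of the 12 samples, and liver after 2, 4 and 6 weeks of emulsion, a model of nonalcoholic fatty liver disease, made up 3 each. The arrays of a group are labelled technical replicates and no source used here gives the number of rats, so the p-values cover differences among arrays alone, which may be technical. Since 0h is the one unfed group, the effects of the emulsion, of elapsed time and of whatever else set the 0h samples apart cannot be told apart.

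In fatty acid oxidation, acyl-CoA synthetases activate fatty acids, and the carnitine shuttle carries long-chain acyl groups through the mitochondrial membranes. Inside, a repeating sequence of dehydrogenation, hydration, dehydrogenation and thiolysis shortens the chain, passing electrons to the respiratory chain through electron transfer flavoprotein. Peroxisomes shorten very long and branched chains. In liver much of the resulting acetyl-CoA becomes ketone bodies, and many genes of the pathway are targets of the fatty acid receptor PPAR alpha.

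Most of the members that moved were higher than at 0h, but the entry step was lower. After 2 weeks 14 of the 34 members rose and 5 fell (limma, adjusted p under 0.05), against 15.6% of all tested genes called higher and 12.6% called lower. After 4 weeks 21 rose and 5 fell, against 14.3% and 15.1% of all genes. Of all genes called at 4 weeks 48.6% were higher, or 62.9% when each array was centred on its median. After 6 weeks 15 rose and 6 fell, against 14.7% and 12.6%. Under the moderated F test of the 3 fed groups against 0h, 25 of the 34 members changed, against 38.6% of all genes. The median log2 change of the members was 0.19, 0.25 and 0.17 at 2, 4 and 6 weeks, where the median of all tested genes was 0.01, -0.03 and 0.00. Higher at all 3 times were 12 members: Acaa1a, Acaa2, Acadl, Acads, Cpt2, Decr1, Eci1, Eci2, Ehhadh, Hadh, Hadhb and Pex11a. Lower at all 3 times were 4: Cpt1a, Acsl4, Acsl5 and Acadsb. In 7 members no change from 0h passed at any time with the brightest probe set (Abcd3, Acot2, Acsl1, Crat, Etfb, Hsd17b4 and Slc25a20). The count of lower members was 3 rather than 5 at 2 weeks when 0h array 1 or 3 was left out. At 4 weeks it was 3 rather than 5 when 0h array 2 or 3 or 4-week array 1 or 2 was left out. Arrays of the fed group lay wholly above those of 0h for 19, 22 and 20 members at 2, 4 and 6 weeks, against 23.2%, 20.2% and 22.1% of all genes. They lay wholly below for 6, 5 and 7 members, against 21.1%, 22.9% and 20.7%.

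**Figure D1:**
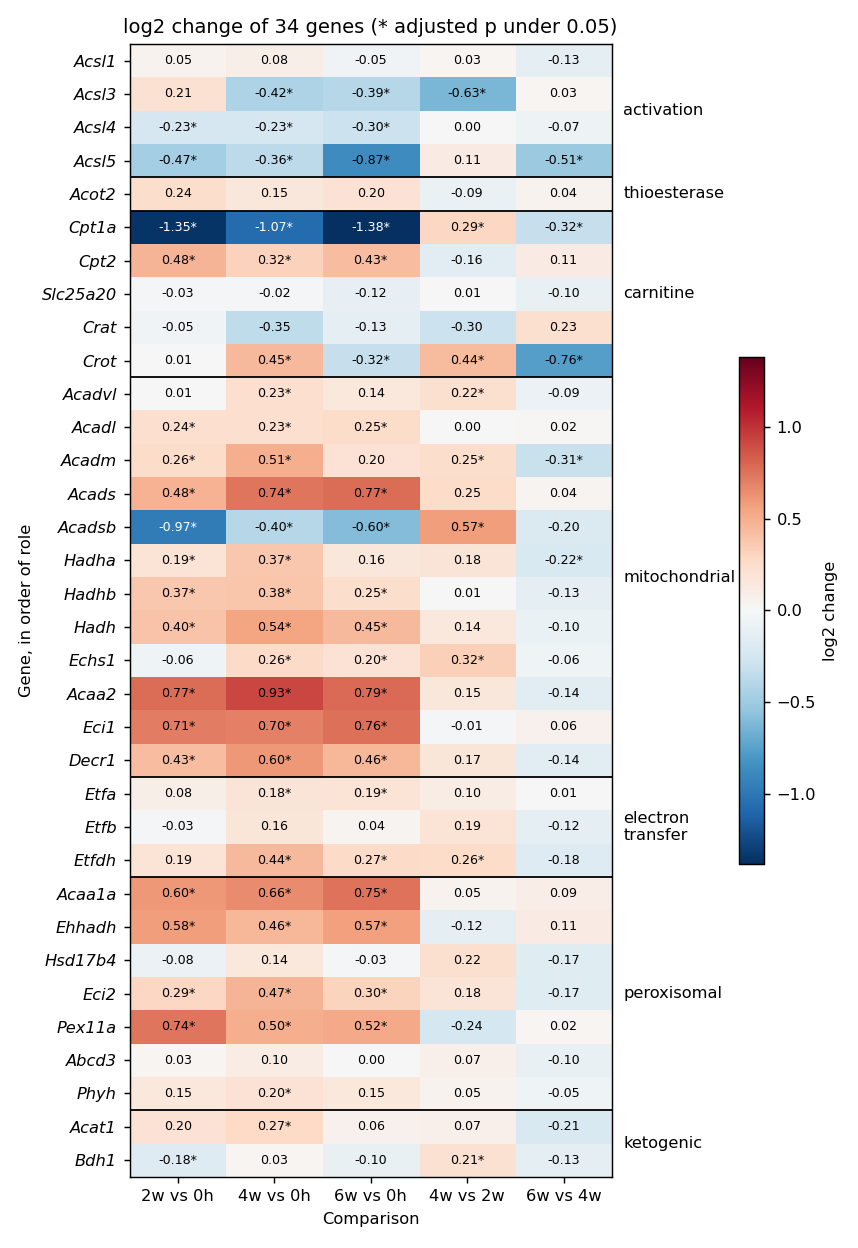
The log2 change of the 34 tested members in the 5 comparisons, with genes in rows ordered by role and comparisons in columns. Red is higher and blue lower in the later group, and a star marks an adjusted p under 0.05. The mitochondrial and peroxisomal blocks are mostly red against 0h, while Cpt1a, Acsl5 and Acadsb are blue at all 3 feeding times.

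The 0h arrays differed from the fed arrays in other ways, and those values bear on every comparison with 0h. The median signal lay between 117.2 and 129.7 on the 12 arrays. The 3′ to 5′ log2 ratio of the GAPDH control, a sign of RNA integrity, was 0.11 to 0.25 at 0h, 0.44 to 0.49 at 2 weeks, 0.30 to 0.36 at 4 weeks and 0.28 to 0.35 at 6 weeks. Cyp2c12, a cytochrome P450 typical of female rats, had signals of 31864 to 36489 at 0h and 420 to 1831 on the fed arrays. Nr1d1, a clock repressor, had 652 to 786 at 0h and 31.7 to 66.6 when fed. Of 5 sex-biased genes tested, 3 rose and 2 fell at 2 and 4 weeks, and 2 rose and 2 fell at 6 weeks. Those that fell were Cyp2c12 and A1bg each time, A1bg with 24289 to 26974 at 0h and 65.8 to 165.8 when fed. Cyp2c11 and Cyp2c13 rose at all 3 times, and Cyp3a2 rose at 2 and 4 weeks. The male-typical Cyp2c11 was also bright at 0h (19903 to 21170) and had 29880 to 37399 on the fed arrays. Cpa1, a pancreatic enzyme, had 6044 to 6538 at 0h and 6.5 to 72.9 when fed. Of 9 pancreatic markers on the array 5 were tested, Cpa1 included, and 2 rose and 2 fell at each time. Besides Cpa1, Cela1 fell at 2 weeks (log2 change -0.77) and 4 weeks (-1.20), and Cpb1 fell at 6 weeks (-0.815). Amy2a3, a pancreatic amylase, rose at all 3 times (15526 to 16224 at 0h and 18785 to 25038 when fed). Pnlip rose at all 3 times as well (45.7 to 70.3 at 0h and 77.5 to 126.5 when fed). The untested markers Prss1, Cela2a, Ctrb1 and Cel had mean signals of 49.0, 35.5, 16.8 and 12.8 at 0h. The summed signal of 8 hepatocyte markers overlapped between 0h (282798 to 328226) and 2 (289923 to 316678), 4 (281315 to 343716) and 6 weeks (266619 to 309390), and all 8 were measured, as the label liver requires. Of these 8, 1 rose at 2 weeks, none was called at 4 weeks and 1 fell at 6 weeks, each time Apoa1 (log2 change 0.44 and -0.38). Overlap of the sums does not show that the hepatocyte content was equal. Of 7 macrophage markers 3 rose at 2 weeks and none fell, and 5 fell at 4 weeks and 3 at 6 weeks. Their summed signal was 25817 to 26382 at 0h, 30715 to 32116 at 2 weeks, 19591 to 20567 at 4 weeks and 21543 to 23598 at 6 weeks. Of 7 stellate cell and matrix markers 6 rose at 2 weeks, 1 rose at 4 weeks, and 2 rose and 3 fell at 6 weeks. The summed signal of that list was 5447 to 5518 at 0h and 8741 to 9093, 5608 to 5759 and 4905 to 5079 at 2, 4 and 6 weeks. Of 4 erythroid markers 3 rose at 2 weeks, 1 at 4 weeks and 1 at 6 weeks, when 1 fell. Of 6 endothelial markers 1 rose at 2 weeks, and 1 and 2 fell at 4 and 6 weeks. Of 6 lymphocyte markers 2 fell at 2 weeks and 3 at 4 weeks, and 1 rose at 6 weeks. The summed signal of those 6 was 1475 to 1535 at 0h and 844 to 1048, 886 to 956 and 1510 to 1560 at 2, 4 and 6 weeks. Of 8 clock genes 3, 4 and 3 rose and 3, 3 and 5 fell at 2, 4 and 6 weeks. Bmal1, Per2 and Cry1 rose at all 3 times, and Nr1d1, Dbp and Clock fell at all 3 times. For all these lists, the shares of all genes were 15.6%, 14.3% and 14.7% higher and 12.6%, 15.1% and 12.6% lower. The part of RNA integrity, sampling time, rat sex and cell makeup in the member changes was not tested. In such bulk samples fewer cells of a type and less RNA per cell cannot be told apart.

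At the activation step no long-chain acyl-CoA synthetase rose with limma (0 also at an unadjusted p under 0.05 and with trended, robust variances), and the members that moved fell. Of 4 measured synthetases 2 fell at 2 weeks, 3 at 4 weeks and 3 at 6 weeks, against 12.6%, 15.1% and 12.6% of all genes. Acsl5, a synthetase of mitochondrial and endoplasmic reticulum membranes, had signals of 10969, 10521 and 10543 at 0h. They were 7625, 7686 and 7812 at 2 weeks, 8658, 8417 and 7869 at 4 weeks, then 5618, 5869 and 5998 at 6 weeks. All fed arrays lay below all 0h arrays, and the 6-week arrays were the lowest. The fall was 1.39-fold at 2 weeks (log2 change -0.47 ± 0.05 SE, n = 3 arrays per group, limma adjusted p = 0.000226), 1.29-fold at 4 weeks (-0.36 ± 0.05) and 1.83-fold at 6 weeks (-0.87 ± 0.05, adjusted p = 4.04e-06). Its other, dimmer probe set was also lower at all 3 times (-0.67, -0.73 and -0.78).

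Acsl4, which prefers arachidonic acid, had signals of 12136 to 12622 at 0h and 9662 to 11508 on the fed arrays, without overlap. Its changes were -0.23, -0.23 and -0.30 (limma adjusted p = 0.0466, 0.0449 and 0.0157). The calls at 2 and 4 weeks were each lost when any of 9 of the 12 arrays was left out (adjusted p up to 0.15 and 0.142), and the call at 6 weeks without 0h replicate 1 or 6-week replicate 1 (up to 0.0536). Acsl3, a synthetase of lipid droplets, had 619.1 to 742.2 at 0h, 754.3 to 829.9 at 2 weeks, 478.0 to 572.6 at 4 weeks and 467.2 to 625.5 at 6 weeks. It was not called at 2 weeks (0.21 ± 0.12), fell at 4 weeks (-0.42 ± 0.12, limma adjusted p = 0.0254) and at 6 weeks (-0.39 ± 0.12, 0.037). The 4-week call was lost when any of 4 arrays was left out, arrays 2 and 3 of 0h and arrays 1 and 2 of 4 weeks (adjusted p up to 0.0852), and the 6-week call when any of 7 arrays was left out (up to 0.121). Acsl1, the main synthetase of liver, had signals of 25494 to 30779 on the 12 arrays, all groups overlapping 0h, and changes of 0.05 ± 0.07, 0.08 ± 0.07 and -0.05 ± 0.07 that did not pass. Another bright Acsl1 probe set (mean signal 22900 against 28211) gave changes of 0.24, 0.18 and -0.06. Acot2, the mitochondrial acyl-CoA thioesterase that works against activation, had 857.9, 976.0 and 811.3 at 0h. It had 1156.4, 1079.6 and 901.3 at 2 weeks, 863.3, 1070.7 and 1012.3 at 4 weeks, then 995.3, 977.3 and 1055.8 at 6 weeks. The 2- and 4-week arrays overlapped those of 0h and the 6-week arrays did not. None of its changes passed (0.24 ± 0.12, 0.15 ± 0.12 and 0.20 ± 0.12; limma adjusted p = 0.149, 0.362 and 0.244). Another Acot2 probe set of nearly equal brightness had changes of 1.24, 0.72 and 0.83, so the probe sets of this gene disagreed in size. With the mean of its 4 probe sets Acot2 was called higher at all 3 times (adjusted p = 0.00456, 0.0232 and 0.0207).

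The carnitine shuttle split, with its outer enzyme lower and its inner enzyme higher. Cpt1a, carnitine palmitoyltransferase 1A of the outer mitochondrial membrane, which controls the entry of long-chain fatty acids, had signals of 7513, 7688 and 7258 at 0h. They were 2941, 2938 and 2914 at 2 weeks, 3604, 3513 and 3604 at 4 weeks, then 2681, 2950 and 2980.2 at 6 weeks. The highest fed array was below the lowest 0h array, and the 4-week arrays stood above those of 2 and 6 weeks. Cpt1a fell 2.55-fold, 2.09-fold and 2.61-fold (-1.35 ± 0.06, -1.07 ± 0.06 and -1.38 ± 0.06; limma adjusted p = 4.37e-07, 1.19e-06 and 2.11e-07), and a separate probe set gave -1.49, -1.17 and -1.27. In the authors' deposited table the 9 pairwise log2 ratios of Cpt1a were all -1.4 at 2 weeks and spanned -1.2 to -1.1 at 4 weeks and -1.4 to -1.3 at 6 weeks. Of all 34 members, Cpt1a had the largest change from 0h at each of the 3 times.

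Cpt2, the inner membrane transferase that returns the acyl group to coenzyme A, had signals of 1852 to 2115 at 0h, 2505 to 2904 at 2 weeks, 2385 to 2471 at 4 weeks and 2529 to 2757 at 6 weeks. It rose 1.39-fold, 1.24-fold and 1.34-fold (0.48 ± 0.07, 0.32 ± 0.07 and 0.43 ± 0.07; limma adjusted p = 0.0012, 0.0103 and 0.00222). Slc25a20, the carrier that exchanges acylcarnitine for carnitine between both transferases, spanned 2504 to 2843 and did not pass (-0.03 ± 0.05, -0.02 ± 0.05 and -0.12 ± 0.05). Crat, which makes acetylcarnitine, spanned 546.4 to 934.5 with a wide spread in every group and changes of -0.05 ± 0.21, -0.35 ± 0.21 and -0.13 ± 0.21 that did not pass. Crot, which transfers shortened chains from peroxisomes to carnitine, moved both ways and was chosen for per-array values after these were seen. Its signals were 10527, 10739 and 9959 at 0h, 10617, 9957 and 10772 at 2 weeks, 14247, 13841 and 14409 at 4 weeks, then 7902, 8768 and 8370 at 6 weeks. The 4-week arrays lay above every other array and the 6-week arrays below every other array. Crot was not called at 2 weeks (0.01 ± 0.06), rose 1.36-fold at 4 weeks (0.45 ± 0.06, limma adjusted p = 0.000501) and fell 1.25-fold at 6 weeks (-0.32 ± 0.06, 0.00354). Its other probe set gave -0.37, 0.29 and -0.43, and with the mean of both Crot was called lower at 2 weeks (adjusted p = 0.0182).

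**Figure D2:**
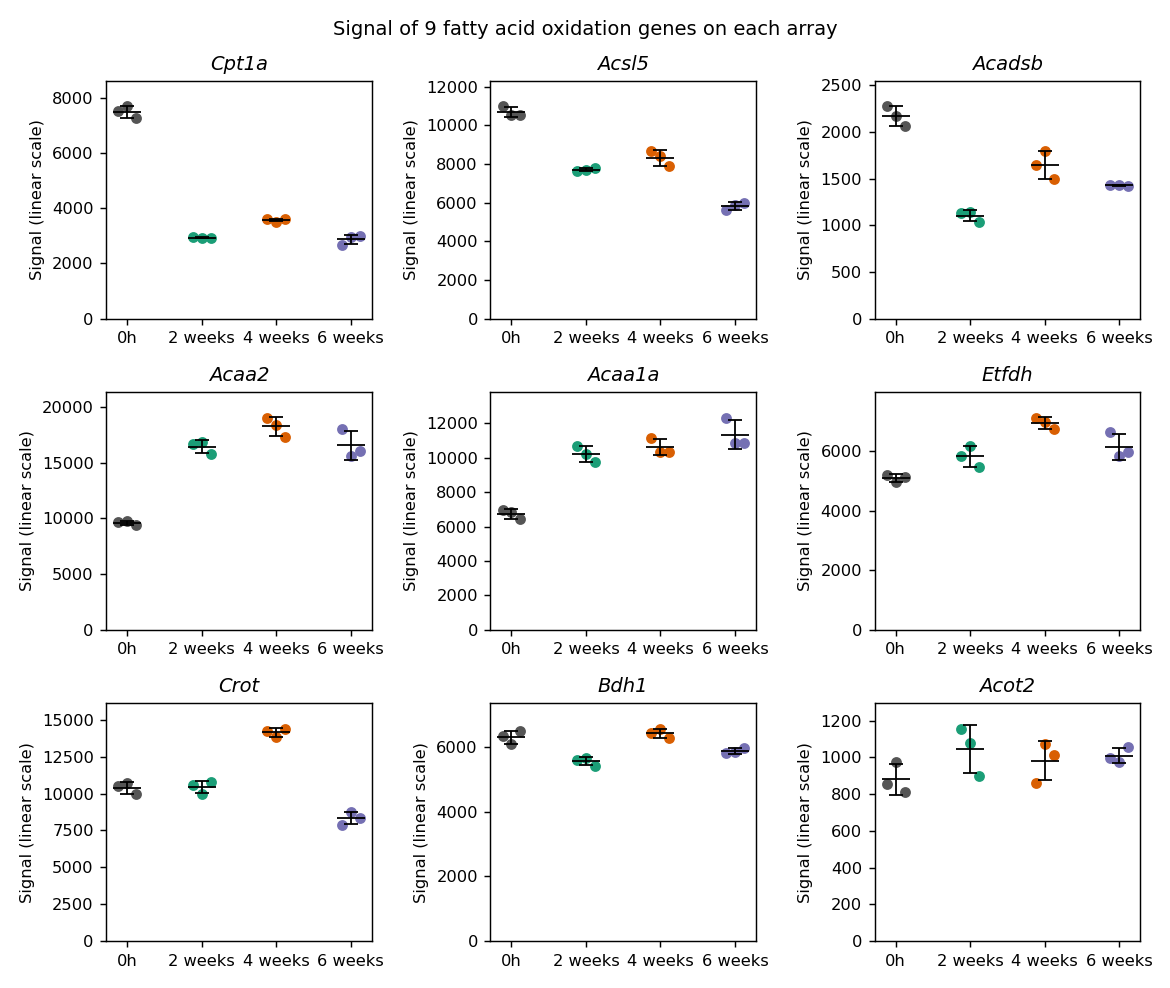
Signal (linear scale, vertical axis from 0) of 9 members on each of the 12 arrays, by feeding time. Points are arrays, and the horizontal bar with whiskers is the group mean ± SD (n = 3). Cpt1a falls from 7258 or more at 0h to 3604 or less on every fed array, Acaa2 rises from 9763 or less to 15632 or more, and Crot peaks at 4 weeks.

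Most mitochondrial enzymes were called higher than at 0h. Of 12 members, 9 rose at 2 weeks, 11 at 4 weeks and 8 at 6 weeks, and at each time 1 fell, Acadsb. The 6-week count depended on the threshold, with 11 higher at an unadjusted p under 0.05 in limma and 11 with trended, robust variances. Of all genes 15.6%, 14.3% and 14.7% were called higher and 12.6%, 15.1% and 12.6% lower. The median log2 change of the 12 was 0.32, 0.44 and 0.25. Acaa2, the thiolase that releases acetyl-CoA, had signals of 9635, 9763 and 9371 at 0h. They were 16641, 16849 and 15748 at 2 weeks, 19047, 18370.0 and 17348 at 4 weeks, then 18008, 15632 and 16031 at 6 weeks. Every fed array lay above every 0h array, and the 6-week arrays overlapped both those of 2 and those of 4 weeks. Acaa2 rose 1.71-fold, 1.90-fold and 1.72-fold (0.77 ± 0.07, 0.93 ± 0.07 and 0.79 ± 0.07; limma adjusted p = 4.11e-05, 1.12e-05 and 3.26e-05), and its dimmer probe set gave 0.58, 1.01 and 1.60.

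Among the acyl-CoA dehydrogenases, which make the initial double bond and are named for the chain length they prefer, the short-chain enzyme Acads rose at all 3 times. Its signals were 1419 to 1524 at 0h, 1843 to 2364 at 2 weeks, 2442 to 2517 at 4 weeks and 2467 to 2579 at 6 weeks. It rose by 0.48, 0.74 and 0.77 on the log2 scale, each ± 0.08, the last being 1.71-fold. The medium-chain enzyme Acadm spanned 14688 to 14812 at 0h, 16932 to 18271 at 2 weeks, 19240 to 21985 at 4 weeks and 16168 to 17895 at 6 weeks. It rose by 0.26 ± 0.07 at 2 weeks and by 0.51 ± 0.07, or 1.42-fold, at 4 weeks, and its change at 6 weeks (0.20 ± 0.07, limma adjusted p = 0.0539) did not pass. The 2-week call was lost without 2-week replicate 1 or 2 (adjusted p up to 0.0638). The long-chain enzyme Acadl rose 1.18-fold, 1.18-fold and 1.19-fold, from 11836 to 12582 at 0h to 13505 to 15240.1 on the fed arrays. Its 2-week call was lost without 0h replicate 1 or 2-week replicate 2 (adjusted p up to 0.0625), and its 4-week call without 0h replicate 1 or 4-week replicate 1 or 2 (up to 0.0633) and with quantile normalization (0.435). The very-long-chain enzyme Acadvl had 4216 to 4518 at 0h and 4356 to 4490 at 2 weeks (0.01 ± 0.05), and 5057 to 5332 at 4 weeks, where it rose 1.17-fold (0.23 ± 0.05, limma adjusted p = 0.00792, or 0.0597 and no longer called with only the groups compared in the fit). At 6 weeks it was 4802 to 4982 (0.14 ± 0.05, 0.0651) and did not pass.

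Acadsb, the short and branched chain dehydrogenase, which also acts in isoleucine breakdown, went the other way. Its signals were 2271, 2170 and 2058 at 0h, 1134, 1146 and 1032 at 2 weeks, 1642, 1799 and 1496 at 4 weeks, then 1429.8, 1428 and 1419 at 6 weeks. The 3 fed groups did not overlap with 0h or with one another, and the 2-week arrays were the lowest. It fell 1.96-fold, 1.32-fold and 1.52-fold (-0.97 ± 0.08, -0.40 ± 0.08 and -0.60 ± 0.08; limma adjusted p = 2.02e-05, 0.00367 and 0.00037).

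Hadha and Hadhb form the trifunctional protein, which carries out the remaining steps on long chains. Hadhb rose at all 3 times (0.37 ± 0.06, 0.38 ± 0.06 and 0.25 ± 0.06), from 7464 to 8034 at 0h to 8649 to 10197 on the fed arrays, and lost its 6-week call with only the groups compared in the fit (adjusted p = 0.0676). Hadha had 4375 to 4438 at 0h, 4769 to 5242 at 2 weeks, 5521 to 5964 at 4 weeks and 4788 to 5039 at 6 weeks. It rose at 2 weeks (0.19 ± 0.06, limma adjusted p = 0.0304) and 4 weeks (0.37 ± 0.06, 0.000912), and its change at 6 weeks (0.16 ± 0.06, 0.0655) did not pass. The 2-week call was lost without any 1 of the 0h arrays or without 2-week replicate 1 or 2 (adjusted p up to 0.106). Hadha has a pair of much dimmer probe sets, with mean signals of at most 128.6 against 5021 for the one used, and the mean of all 3 gave -0.05 at 4 weeks.

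Hadh, the dehydrogenase for shorter hydroxyacyl chains, rose at all 3 times (0.40 ± 0.07, 0.54 ± 0.07 and 0.45 ± 0.07). Echs1, the short-chain hydratase, was not called at 2 weeks (-0.06 ± 0.06) and rose at 4 weeks (0.26 ± 0.06) and 6 weeks (0.20 ± 0.06, limma adjusted p = 0.026). The 6-week call was lost without 0h replicate 2 or 3 or 6-week replicate 2 or 3 (adjusted p up to 0.0825). The auxiliary enzymes that let unsaturated fatty acids enter the cycle rose at all 3 times. Decr1, the dienoyl-CoA reductase, rose by 0.43 ± 0.06, 0.60 ± 0.06 and 0.46 ± 0.06. Eci1, the enoyl-CoA isomerase, had 5094 to 5464 at 0h and 8097 to 9195 on the fed arrays and rose 1.64-fold, 1.62-fold and 1.70-fold (0.71 ± 0.06, 0.70 ± 0.06 and 0.76 ± 0.06). Its probe set is of a type that can also detect related transcripts, and with the mean of its 3 probe sets, the others having mean signals of 44.2 and 119.9, the calls were lost (adjusted p = 0.112, 0.273 and 0.0963).

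Of the 3 electron transfer members none was called at 2 weeks with limma, while 1, Etfdh, passed at an unadjusted p under 0.05 and with trended, robust variances. At 4 and at 6 weeks 2 members rose, against 14.3% and 14.7% of all genes. Etfdh, the oxidoreductase that hands electrons to ubiquinone, had signals of 5201, 4961 and 5126 at 0h. They were 5830.0, 6151 and 5467 at 2 weeks, 7117, 6958 and 6736 at 4 weeks, then 6631, 5818 and 5955 at 6 weeks. All fed arrays lay above 0h, and the 4-week arrays were the highest. The changes were 0.19 ± 0.07 (limma adjusted p = 0.0638), 0.44 ± 0.07 (0.001) and 0.27 ± 0.07 (0.0164), and the 6-week call was lost without 0h replicate 2 or 6-week replicate 1 (up to 0.053). Etfa, the alpha subunit of electron transfer flavoprotein, rose by 0.18 ± 0.05 at 4 weeks and 0.19 ± 0.05 at 6 weeks. The 4-week call was lost with quantile normalization (adjusted p = 0.15), with only the groups compared in the fit (0.0808) and without 4-week replicate 1 (0.054), and the 6-week call with only the groups compared (0.0671). The beta subunit Etfb had 10305 to 13649 over the 12 arrays, with every group overlapping 0h, and did not pass (-0.03 ± 0.09, 0.16 ± 0.09 and 0.04 ± 0.09).

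Peroxisomal members rose or were not called, and none fell against 0h with limma (0 also at an unadjusted p under 0.05 and with trended, robust variances, but 1, Hsd17b4 at 2 weeks, with quantile normalization, adjusted p = 0.0474). Of 7 members 4 rose at 2 weeks, 5 at 4 weeks and 4 at 6 weeks, against 15.6%, 14.3% and 14.7% of all genes. Their median log2 changes were 0.29, 0.46 and 0.30. Of 19 further peroxisomal genes outside the member list, 7, 8 and 8 rose and 4, 2 and 5 fell at 2, 4 and 6 weeks. Of all genes 12.6%, 15.1% and 12.6% fell. Acaa1a, the peroxisomal thiolase, had signals of 6955, 6840.1 and 6414 at 0h. They were 10701, 10247 and 9735 at 2 weeks, 11167, 10335 and 10349 at 4 weeks, then 12335, 10849 and 10847 at 6 weeks. Each fed array exceeded each 0h array, and the 4-week arrays overlapped both those of 2 and those of 6 weeks. It rose 1.52-fold, 1.58-fold and 1.68-fold (0.60 ± 0.07, 0.66 ± 0.07 and 0.75 ± 0.07; limma adjusted p = 0.000253, 0.000143 and 6.37e-05). The probe set carries the older symbol Acaa1 and may not separate closely related copies of this thiolase.

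Ehhadh, the L-bifunctional enzyme and a classic PPAR alpha target in rodents, rose 1.49-fold, 1.37-fold and 1.48-fold, from 6552 to 7188 at 0h to 8912 to 10711 on the fed arrays. Hsd17b4, the D-bifunctional enzyme that handles branched chains and bile acid precursors, did not pass (-0.08 ± 0.07, 0.14 ± 0.07 and -0.03 ± 0.07; signals of 9587 to 12532). Eci2, an isomerase of peroxisomes and mitochondria, rose by 0.29 ± 0.06, 0.47 ± 0.06 and 0.30 ± 0.06. Pex11a, which promotes peroxisome division, had 555.2 to 757.2 at 0h, 1017 to 1088 at 2 weeks, 846.4 to 980.5 at 4 weeks and 816.9 to 979.3 at 6 weeks. It rose 1.67-fold, 1.41-fold and 1.44-fold (0.74 ± 0.12, 0.50 ± 0.12 and 0.52 ± 0.12), but the 4- and 6-week calls were lost with only the groups compared in the fit (adjusted p = 0.0574 and 0.0528). Abcd3, an importer of acyl-CoA into peroxisomes, spanned 1288 to 1519 with all groups overlapping and did not pass (0.03 ± 0.07, 0.10 ± 0.07 and -0.00 ± 0.07). Phyh, the hydroxylase that starts the breakdown of phytanic acid, rose at 4 weeks (0.20 ± 0.07, limma adjusted p = 0.0479), a call lost when any of 10 arrays was left out (adjusted p up to 0.118).

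Of the 2 ketogenic members 1 fell at 2 weeks and 1 rose at 4 weeks, where 12.6% of all genes fell and 14.3% rose. Bdh1, which interconverts acetoacetate and hydroxybutyrate, had signals of 6343, 6104 and 6501 at 0h, 5614, 5654 and 5432 at 2 weeks, 6453, 6576 and 6292 at 4 weeks, then 5814, 5847 and 5983 at 6 weeks. The 2- and 6-week arrays lay below 0h, and the 4-week arrays overlapped it. It fell at 2 weeks (-0.18 ± 0.05, limma adjusted p = 0.0209), a call lost when 0h array 1 or 3 or 2-week replicate 3 was left out (adjusted p up to 0.0716), and its changes at 4 weeks (0.03 ± 0.05) and 6 weeks (-0.10 ± 0.05) did not pass. Acat1, the thiolase that joins acetyl-CoA units, had 6268 to 6472 at 0h and 7278 to 8063 at 4 weeks, where it rose (0.27 ± 0.08, adjusted p = 0.0269). That call was lost without any 1 of the 0h arrays or without 4-week replicate 1 or 2 (adjusted p up to 0.0883). Its changes at 2 weeks (0.20 ± 0.08, 0.08) and 6 weeks (0.06 ± 0.08, 0.616) did not pass. Its other probe set gave 0.67, 0.59 and 0.51, and with the mean of both probe sets Acat1 was called higher at 2 weeks (adjusted p = 0.000529) and 6 weeks (0.00553) too.

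**Figure D3:**
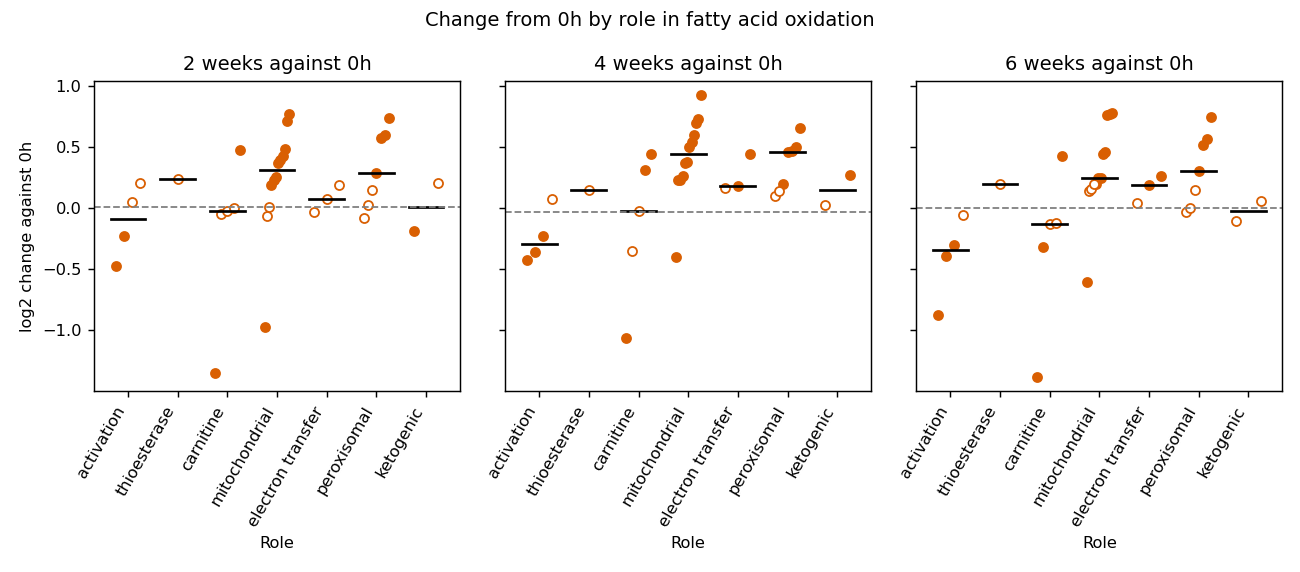
The log2 change of each member against 0h (vertical axis), grouped by role, at 2, 4 and 6 weeks. Filled points passed at an adjusted p under 0.05 and open points did not, the black bar is the median of the role (activation, thioesterase, carnitine, mitochondrial, electron transfer, peroxisomal and ketogenic), and the dashed line is the median of all tested genes. The mitochondrial medians (0.32, 0.44 and 0.25) and peroxisomal medians (0.29, 0.46 and 0.30) lie above that line, and the activation medians (-0.09, -0.30 and -0.35) lie below it.

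The steps between feeding times compare fed groups only, while the 0h arrays still enter the pooled variance. From 2 to 4 weeks 8 members rose and 1 fell, against 5.14% and 8.0% of all genes. The arrays of 4 weeks lay wholly above those of 2 weeks for 18 members and below for 4, against 13.9% and 18.4%. Over the same step 7 of 7 macrophage, 5 of 7 stellate cell and matrix and 3 of 4 erythroid markers fell, and the GAPDH 3′ to 5′ log2 ratio went from 0.44 to 0.49 down to 0.30 to 0.36. Their part in the member changes was not tested. Crot rose by 0.44 ± 0.06 (limma adjusted p = 0.00139), Acadsb by 0.57 ± 0.08 (0.00122), Echs1 by 0.32 ± 0.06 (0.00524) and Cpt1a by 0.29 ± 0.06 (0.00866). Acadm (0.25 ± 0.07), Etfdh (0.26 ± 0.07), Acadvl (0.22 ± 0.05) and Bdh1 (0.21 ± 0.05) also rose, and Acsl3 fell by 0.63 ± 0.12 on the log2 scale (0.0081). The count of 8 became 4 when 2-week array 1 or 3 or 4-week array 1 or 2 was left out, and the call of Echs1 was lost with only the groups compared in the fit (adjusted p = 0.0576). The calls of Acadm, Etfdh, Acadvl and Bdh1 were lost when any of 10, 7, 5 and 5 arrays was left out (adjusted p up to 0.124, 0.112, 0.0749 and 0.0678).

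From 4 to 6 weeks none of the 34 members rose and 5 fell, against 6.27% and 4.13% of all genes. The arrays of 6 weeks lay wholly above those of 4 weeks for 1 member and below for 15, against 16.2% and 12.9%. Over this step 4 of 6 lymphocyte and 1 of 7 macrophage markers rose, while 2 of 8 hepatocyte and 2 of 4 erythroid markers fell. Of 7 stellate cell and matrix markers 1 rose and 2 fell. The median log2 change was -0.17 for the hepatocyte markers and -0.10 for the members. The part of these lists in the member changes was not tested either. No member rose at an unadjusted p under 0.05 in limma or with its trended, robust variant, while 13 fell at an unadjusted p under 0.05. Crot fell 1.70-fold (-0.76 ± 0.06, limma adjusted p = 4.98e-05) and Acsl5 1.43-fold (-0.51 ± 0.05, 0.000384). Cpt1a (-0.32 ± 0.06), Acadm (-0.31 ± 0.07) and Hadha (-0.22 ± 0.06) fell as well. The count of 5 became 3 when 4-week array 1 or 2 or 6-week array 2 or 3 was left out. The call of Cpt1a was lost with only the groups compared in the fit (adjusted p = 0.0737) and that of Acsl5 with the mean of its probe sets (0.0717). The call of Acadm was lost without any 1 of the same 4 arrays (adjusted p up to 0.0738), and that of Hadha when any of 9 arrays was left out (up to 0.117). In group means, 18 of the 34 members (52.9%) were highest at 4 weeks and 20 (58.8%) were lowest at 0h, whereas 20.4% of all tested genes were highest at 4 weeks and 31.5% lowest at 0h.

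**Figure D4:**
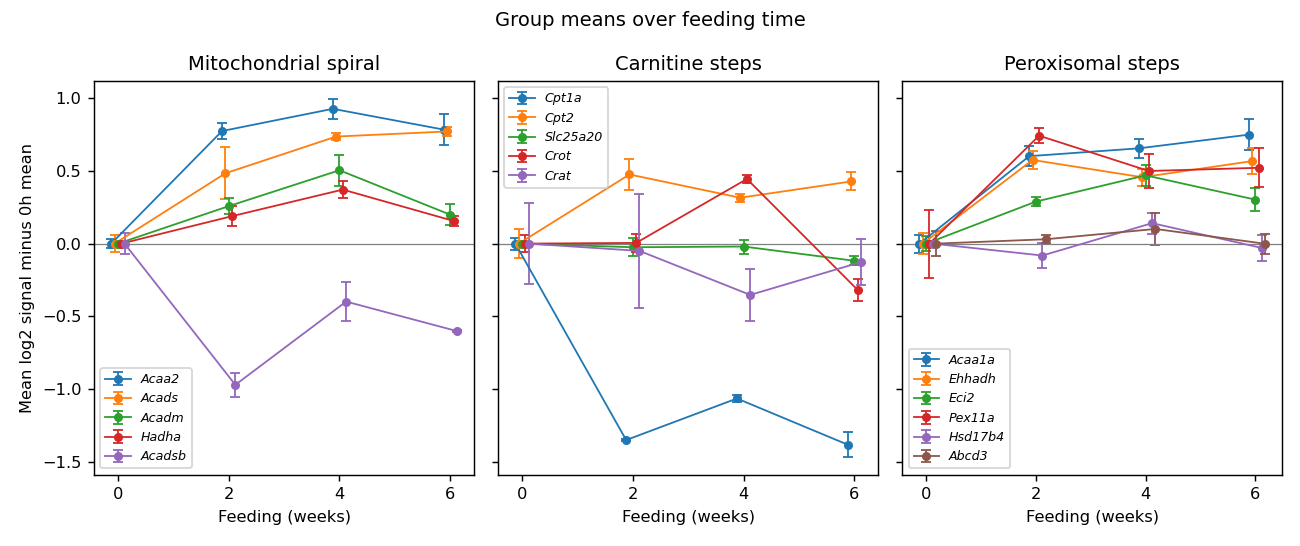
Mean log2 signal minus the 0h mean (vertical axis) over weeks of feeding (horizontal axis) for selected mitochondrial, carnitine and peroxisomal members. Error bars are the SD of the 3 arrays. Cpt1a stays at least 1.07 below 0h, Crot is 0.45 above 0h at 4 weeks and -0.32 at 6 weeks, and Acaa2 is 0.77 to 0.93 above.

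Of 49 further genes of the pathway, 46 were on the array and 44 were tested. The number that rose was 15, 16 and 16 at 2, 4 and 6 weeks, and the number that fell was 8, 6 and 10. Of all genes 15.6%, 14.3% and 14.7% rose and 12.6%, 15.1% and 12.6% fell. The 44 had median log2 changes of 0.06, 0.11 and 0.07. Abcd2, an importer of peroxisomes, had 105.4 to 144.3 at 0h and 37.9 to 83.7 when fed, with 1 array at 4 weeks and 2 at 6 weeks under the dim threshold. It was called lower at 4 weeks (limma adjusted p = 0.0249) and 6 weeks (0.00901).

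Pdk4, a kinase that restrains glucose oxidation when fatty acids are burned, fell at all 3 times (-1.14 ± 0.09, -0.73 ± 0.09 and -1.09 ± 0.09), from 1597 to 1831 at 0h to 709.3 to 1084.4. Cyp4a8, a fatty acid hydroxylase, had 91.2 to 136.9 at 0h, 417.0 to 432.2 at 2 weeks, 86.1 to 157.8 at 4 weeks and 387.9 to 452.5 at 6 weeks. It rose at 2 weeks (1.89 ± 0.21) and 6 weeks (1.87 ± 0.21), and its change at 4 weeks (0.13 ± 0.21) did not pass. Ppara, the receptor itself, and its coactivator Ppargc1a failed the filter on mean signal and were not tested. Ppara had 105.2 and 112.3 on 2 of the 4-week arrays and 9.3 to 23.4 on the others. Ppargc1a had 58.5 to 70.9 at 0h, above the dim threshold on all 3 arrays, and 1.8 to 60.8 on the fed arrays, under it on 8 of 9.

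RefSeq promoter windows on assembly GRCr8, from 250 bases before to 50 bases after the start of the gene, were found for 32 of the 35 members, and not for Acaa2, Acadl and Decr1. An exact DR1, the direct repeat form of the PPAR response element made of 2 copies of AGGTCA with 1 base between them, was in 0 of the 32 windows on either strand. It was in 0.0116% of the windows of 8607 tested genes and 0.0538% of all 33469 windows. A single AGGTCA on either strand was in 6 of 32 (Echs1, Hadhb, Eci1, Acadvl, Eci2 and Hsd17b4; 18.8%) against 12.5% of tested genes and 16.2% of all windows. The GC box GGGCGG on either strand was in 24 of 32 (75.0%) against 61.6% and 33.1%, with a median GC content of 61.2% against 60.7%. Shown are the windows of the 3 members with the smallest F test p among those with a window, Cpt1a and Acsl5, which fell, and Eci1, which rose. They are written 5′ to 3′ on the strand of the gene, with capitals for AGGTCA or GGGCGG or their complements. Cpt1a lies at chr1:209995910-209996209 and Acsl5 at chr1:264294601-264294900, both on the plus strand, and neither window holds either motif. Eci1 lies at chr10:13961000-13961299 on the plus strand, with AGGTCA read on the minus strand starting 94 bases before the start site. GGGCGG follows shortly after that AGGTCA match, also before the start site.
Cpt1a: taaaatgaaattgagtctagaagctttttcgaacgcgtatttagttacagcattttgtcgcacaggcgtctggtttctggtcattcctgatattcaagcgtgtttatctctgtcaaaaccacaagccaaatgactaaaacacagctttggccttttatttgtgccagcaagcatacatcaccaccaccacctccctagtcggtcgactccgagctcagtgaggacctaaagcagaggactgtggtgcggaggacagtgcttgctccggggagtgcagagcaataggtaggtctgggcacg
Acsl5: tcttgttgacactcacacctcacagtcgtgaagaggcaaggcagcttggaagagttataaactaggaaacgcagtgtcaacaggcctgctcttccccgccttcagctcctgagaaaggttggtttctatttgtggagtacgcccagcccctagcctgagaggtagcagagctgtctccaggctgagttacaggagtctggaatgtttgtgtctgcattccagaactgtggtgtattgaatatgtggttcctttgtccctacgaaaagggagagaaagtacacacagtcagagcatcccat
Eci1: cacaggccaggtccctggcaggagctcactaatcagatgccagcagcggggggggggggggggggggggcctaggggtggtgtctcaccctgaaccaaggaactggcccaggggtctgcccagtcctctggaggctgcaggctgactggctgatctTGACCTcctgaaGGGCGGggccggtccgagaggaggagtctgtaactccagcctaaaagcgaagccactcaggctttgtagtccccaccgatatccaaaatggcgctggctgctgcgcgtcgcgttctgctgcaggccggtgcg
A match or its lack describes these letters only.

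In the authors' deposited table, all 9 pairwise log2 ratios had the sign of the change found here for 19 of 19 called members at 2 weeks, 25 of 26 at 4 weeks and 21 of 21 at 6 weeks. The exception was Phyh at 4 weeks, for which 4 of 9 pairs were above 0. These ratios come from the same arrays, and for some members not called here they differed. For Hsd17b4 at 6 weeks 9 of 9 pairs were above 0 (log2 change here -0.03). For Abcd3 7 of 9 were below 0 at 2 and at 4 weeks (0.03 and 0.10 here). For Acot2 9 of 9 were above 0 at all 3 times.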

How the data were processed

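Liver RNA of 12 samples was hybridised to 1 array each. The deposited values are signal intensities on a linear scale, as the authors scaled them, and the submitters' processing notes name GCOS 2.0. The main fit used these values without further scaling, and the median signal was 117.2 to 129.7 over the 12 arrays. A deposited sheet repeats the signal values within 0.1 and gives gene symbols. Per the file headers, the sheet also gives the authors' log2 ratios and linear ratios of each fed array over each 0h array. Detection calls were not used here.

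Signals were converted to log2(signal + 1), which understates changes of dim genes. Probe sets received the symbol of the sheet, updated through RefSeq names of GRCr8, and 57 controls were left out. Each gene was represented by its brightest probe set. Genes with a mean log2 signal above the 30th percentile of probe sets (5.45) were tested. A probe set is called dim on an array when its signal is under that array's 30th percentile (45.5 to 54.0). A limma 3.58.1 model (R 4.3.3) gave each group its own mean over the 12 arrays (8 residual degrees of freedom, Benjamini-Hochberg over 11318 genes within a comparison, threshold 0.05). The number of arrays limits the precision, and the median within-group SD was 0.16. The procedure was tested on simulated data. The members and lists were chosen with earlier results of these data known, and their changes were part of those results.

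Named are all members, with per-array values for those changed by at least 0.8 (log2) from 0h and for the smallest F test p of each role. From the wider pathway list, the rule names 5 fixed genes and the 4 with the largest called change, of which some are not reported here. Other settings of normalization, filter, pseudocount, probe sets, variance model, samples and replicates were tried.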

Additional observations from a re-analysis of the deposited data

Results flagged for a closer look

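The change from 0h differed between adjacent feeding times in the following members, by limma's test of the difference itself (adjusted p under 0.05). Between 4 and 2 weeks the log2 difference was 0.44 for Crot, 0.57 for Acadsb, 0.32 for Echs1, 0.29 for Cpt1a, 0.26 for Etfdh, 0.25 for Acadm, 0.22 for Acadvl and 0.21 for Bdh1, and -0.63 for Acsl3. Between 6 and 4 weeks it was -0.76 for Crot, -0.51 for Acsl5, -0.32 for Cpt1a, -0.31 for Acadm and -0.22 for Hadha. Crot is the member called higher than 0h at one feeding time and lower at another. No outlying array was looked for in groups of 3.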

How the results depend on the processing

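Of 3570 changes of single members recomputed under the alternatives, 3368 kept their side of the threshold, 164 lost their call, 36 gained one and 2 reversed. The total includes changes not called in the main fit. Direction was checked only for changes called there, so the lower call that Crot gained at 2 weeks is not among the reversals. The reversals were both of Hadha with the mean of its probe sets (a log2 change of -0.0467 at 4 weeks against 0h and 0.238 for 6 against 4 weeks), where dim probe sets enter with equal weight. Calls of Cpt1a, Acsl5, Acadsb, Acaa2, Acads, Hadh, Decr1, Acaa1a, Ehhadh, Eci2 and Cpt2 against 0h held under every alternative at all 3 times. The number of lower members became 3 with median centring at 2 and at 4 weeks, and 3 at 2 weeks with only the groups compared. Members higher from 2 to 4 weeks became 4 with quantile normalization, 13 with trend and robust and 3 with only the groups compared. Members lower from 4 to 6 weeks became 3 with the mean of probe sets, 9 with trend and robust and 2 with only the groups compared. The cause of these differences was not tested. Without each array in turn, higher members numbered 11 to 16, 17 to 21 and 13 to 16 at 2, 4 and 6 weeks and lower members 3 to 5, 3 to 5 and 4 to 6. From 2 to 4 weeks the counts were 4 to 8 higher and 1 lower, and from 4 to 6 weeks 0 higher and 3 to 5 lower. The F test gave 22 to 25. With the replicate block the counts were 14 and 4, 21 and 4, and 15 and 6 against 0h, and 24 by the F test, and the calls of Acsl4 at 2 and 4 weeks were lost (adjusted p = 0.0523 and 0.0503). The replicate numbers did not pair the arrays: deviations of same-numbered arrays correlated at -0.025 to 0.076. Of all genes called at 4 weeks, 48.6% were higher than at 0h, or 62.9% with median centring, and from 2 to 4 weeks 39.1% or 50.9%. Acot1, Ppara and Ppargc1a failed the filter on mean signal and were not tested.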
